A study of Homo sapiens with 3 samples.

Results

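Transcript levels of 10 glutathione transferase genes were read in 3 RNA libraries of MTAC-P cells, out of 26565 genes in the deposited tables. The genes are GSTP1, GSTM2, GSTM3, GSTM4, GSTK1, GSTO1, GSTA4, MGST1, MGST2 and MGST3, taken by name, with the FPKM values of all RefSeq transcripts of a gene added up. MTAC-P is a human lung cancer line that was derived from PC9 and resists inhibitors of the EGFR kinase. All libraries come from this line, grown in DMEM with 10% serum. The control carries a short hairpin against luciferase (1 library), and the others carry short hairpins against BCAT1, the cytosolic branched-chain aminotransferase (2 libraries, labelled shBCAT1 1 and shBCAT1 2). The labels do not say whether the latter hold different hairpins or separate cultures, so any p-value reflects how far these libraries differ among themselves, a spread that may be technical only.

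Glutathione transferases join the tripeptide glutathione to reactive electrophiles, among them drugs and products of lipid oxidation, and so prepare them for export. The cytosolic enzymes fall into classes named by Greek letters: GSTP1 is the pi enzyme, GSTM2 to GSTM4 are mu, GSTO1 is omega and GSTA4 is alpha, while GSTK1 is a kappa enzyme of mitochondria and peroxisomes. MGST1 to MGST3 are unrelated in fold and belong to the MAPEG family of membrane proteins. Several of these genes are targets of NRF2, a transcription factor that binds antioxidant response elements, and GSTP1 is known as an abundant protein of lung tumours.

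Start regions of 3 of the genes are printed because GSTP1 holds most of the family's RNA, MGST1 is read from separate start sites, and GSTO1 is the member whose values stayed closest to the control. Each runs from 250 bases before an annotated start to 50 bases from it on, 5′ to 3′ on the plus strand (RefSeq, GRCh38.p14), and capitals mark matches to TGACNNNGC, the core letters of an antioxidant response element, searched on both strands.
GSTP1, chr11:67583562-67583861: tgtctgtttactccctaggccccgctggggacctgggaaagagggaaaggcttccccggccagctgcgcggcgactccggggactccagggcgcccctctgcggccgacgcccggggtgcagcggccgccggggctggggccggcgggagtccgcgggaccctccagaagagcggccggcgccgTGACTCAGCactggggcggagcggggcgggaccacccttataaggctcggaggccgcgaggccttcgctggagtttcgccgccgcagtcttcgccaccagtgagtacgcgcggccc
MGST1 upstream start, chr12:16346865-16347164: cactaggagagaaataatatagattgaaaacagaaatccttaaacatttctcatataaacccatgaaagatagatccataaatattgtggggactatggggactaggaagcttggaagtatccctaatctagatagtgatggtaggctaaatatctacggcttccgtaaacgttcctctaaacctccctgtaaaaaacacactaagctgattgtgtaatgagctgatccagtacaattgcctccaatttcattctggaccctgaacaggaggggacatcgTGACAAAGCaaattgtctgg
MGST1 main start, chr12:16347395-16347694: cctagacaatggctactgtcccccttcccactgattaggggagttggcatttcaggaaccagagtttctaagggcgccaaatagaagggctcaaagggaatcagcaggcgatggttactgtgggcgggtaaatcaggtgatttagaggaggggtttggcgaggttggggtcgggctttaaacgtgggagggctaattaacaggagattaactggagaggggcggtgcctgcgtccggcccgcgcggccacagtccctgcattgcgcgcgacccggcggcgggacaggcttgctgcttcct
GSTO1, chr10:104254642-104254941: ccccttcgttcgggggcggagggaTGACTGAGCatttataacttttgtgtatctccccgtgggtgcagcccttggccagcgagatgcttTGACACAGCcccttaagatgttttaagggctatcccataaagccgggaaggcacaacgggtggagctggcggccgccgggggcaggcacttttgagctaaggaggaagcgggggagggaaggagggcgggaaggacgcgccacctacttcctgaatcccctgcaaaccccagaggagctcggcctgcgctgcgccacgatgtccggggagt
The match of GSTP1 lies at positions -66 to -58 from the start (position 1) and also contains TGACTCA, the letters bound by AP-1, so these motifs overlap there. The upstream start of MGST1 has its match at positions 31 to 39, and the window of GSTO1 has 2 matches. The deposited loci of GSTP1 (from 67583595) and of the GSTO1 transcript that held its value (from 104254710) begin within these windows, upstream of position 1. The GSTP1 match thus lies inside the deposited locus. For 9 of the 10 genes the table had at least 1 window, 11 windows in all, and MGST2 had no entry. TGACNNNGC was found in 4 of the 11 windows (4 of the 9 genes, GSTA4 being the other), beside 13.3% of all 35116 windows of this length. TGACTCA was found in 1 of the 11 windows, that of GSTP1, beside 4.95% of all windows. The GSTP1 window held 36 CG dinucleotides beside a median of 14 over all windows, and that of GSTM3 held 1. A match describes letters and not a site in use.

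FPKM stands for fragments per kilobase of transcript scaled to the total of fragments mapped. Over all genes it summed to 53898 in the control, 44312 in shBCAT1-labelled library 1 and 46145 in shBCAT1-labelled library 2. The deposited confidence bounds, about 2 SDs on either side of a value, cover the error of counting and assigning fragments and no spread between libraries. Relative to the control, depth read from these bounds was 1.03 in shBCAT1-labelled library 1 and 1.09 in shBCAT1-labelled library 2. BCAT1 itself had 0.213 FPKM in the control (bounds 0.129 to 0.297), 1.05 (0.835 to 1.27) in shBCAT1-labelled library 1 and 0.241 (0.158 to 0.325) in shBCAT1-labelled library 2. Its summed values thus go against the label of the first and show no reduction in the other. The transcript that held the control value was at 0.445 FPKM (0.304 to 0.587) in shBCAT1-labelled library 1. In shBCAT1-labelled library 2 its upper bound was 0.0135, and another transcript held 0.241 FPKM. The split among transcripts is itself an estimate. The epithelial markers EPCAM, CDH1, EGFR and keratins 7, 8, 18 and 19 were present (all 7 averaging 1 FPKM or more), with a summed level of 791 to 1098 FPKM. Of fibroblast, leukocyte and endothelial markers 0 of 9 reached that mean, and COL1A2, DCN and PTPRC were at 0 in every library.

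GSTP1 (chromosome 11, 67583595 to 67586653, hg38) was the most abundant member and the one whose values in both shBCAT1-labelled libraries lay apart from the control by their bounds. Its product conjugates many drugs and also binds the kinase JNK. GSTP1 had 93.5 FPKM in the control (bounds 87.7 to 99.2), 66.8 in shBCAT1-labelled library 1 (62.0 to 71.6) and 74.4 in shBCAT1-labelled library 2 (69.5 to 79.3). The control is high, and the bounds of the other libraries overlap each other. These values rest on bounds as wide as those of 1062, 782 and 921 fragments, the deepest reading of the family. The mean of the shBCAT1-labelled libraries was 70.6 ± 5.36 FPKM (SD, n = 2), 0.755 times the control. The difference in log2(FPKM + 1) was -0.40 ± 0.17 (SE) and the limma adjusted p was 0.797, so it did not pass the test. Of the 3889 genes tested, 13.1% had a lower difference. Bounds apart and lower in both libraries were found for 4.17% of genes tested, for 6.51% of those with transcripts of 800 to 1500 bases, the length class of GSTP1 (961 bases), and for 26.4% of the 531 genes with a mean of 10 FPKM or more. Genes of that level had a median difference of -0.30 and genes of that length -0.21, beside -0.06 for all genes tested; the part of level and length in the GSTP1 value was not tested. With quantile normalization the GSTP1 difference was -0.07, at -0.17 and 0.03 in the single libraries, with the length trend removed -0.19, and with median-of-ratios scaling -0.31.

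**Figure D1:**
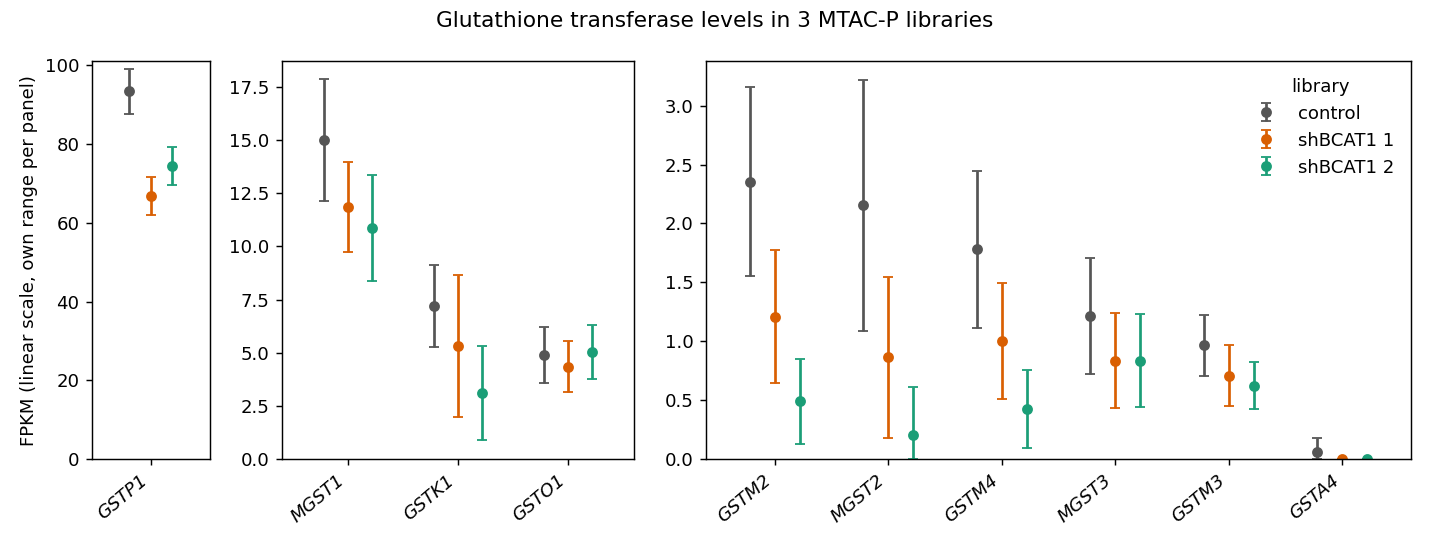
FPKM of the 10 genes in each library on linear axes with their own range per panel, ordered by the control; points are values and bars the confidence bounds, which cover counting and assignment error only. GSTP1 at 66.8 to 93.5 FPKM stands above all others, and the bars of GSTO1 overlap in all 3 libraries.

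Among the membrane enzymes MGST1 was the most abundant and MGST2 the furthest from the control. MGST1, which protects membranes of the endoplasmic reticulum and mitochondria from lipid peroxides (chromosome 12, 16347142 to 16377189), had 15.0 FPKM in the control (bounds 12.1 to 17.9), 11.9 (9.74 to 14.0) in shBCAT1-labelled library 1 and 10.9 (8.39 to 13.4) in shBCAT1-labelled library 2. The control is the highest, but all 3 sets of bounds overlap. Its difference was -0.37 ± 0.19 (SE) in log2(FPKM + 1), with a limma adjusted p of 0.799, and it became -0.14 with quantile normalization and -0.15 with the length trend removed.

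MGST2, which can make leukotriene C4 from leukotriene A4 (chromosome 4, 139665768 to 139740745), had 2.15 FPKM in the control (1.09 to 3.22), 0.864 (0.182 to 1.55) in shBCAT1-labelled library 1 and 0.204 (0 to 0.611) in shBCAT1-labelled library 2. Only the latter has bounds apart from the control, at 0.0949 times its value. Few fragments stand behind these levels. The bounds of MGST2, which add the errors of 4 entries, were as wide as those of 16.4, 6.42 and 1.01 fragments. The difference was -1.07 ± 0.32 (SE) in log2(FPKM + 1), the most negative of the family, with an unadjusted p of 0.0279 and an adjusted p of 0.797 by limma. It was -2.06 with a pseudocount of 0.1 and -0.37 with a pseudocount of 5.

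MGST3, a related enzyme with peroxidase activity (chromosome 1, 165630873 to 165656135), had 1.21 FPKM in the control (0.718 to 1.71), 0.834 (0.429 to 1.24) in shBCAT1-labelled library 1 and 0.835 (0.441 to 1.23) in shBCAT1-labelled library 2. The latter are nearly equal and their bounds overlap those of the control. Its mean was below 1 FPKM, and in the limma fit with no filter on level its difference was -0.27 ± 0.11 (SE), with an adjusted p of 0.801 among 16451 genes.

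The mu class genes lie side by side on chromosome 1, in the order GSTM4, GSTM2, GSTM1, GSTM5 and GSTM3. Their sequences are similar, so reads can be split between them either way and each value is uncertain. GSTM2 (109668022 to 109683997) was at 2.36 FPKM in the control (bounds 1.55 to 3.16), 1.21 (0.642 to 1.77) in shBCAT1-labelled library 1 and 0.489 (0.130 to 0.848) in shBCAT1-labelled library 2. GSTM4 (109656076 to 109665501) was at 1.78 (1.12 to 2.45), 1.00 (0.513 to 1.49) and 0.424 (0.0895 to 0.759) FPKM in the same order. For each of them shBCAT1-labelled library 2 was the lowest and had bounds apart from the control, while the bounds of shBCAT1-labelled library 1 overlapped both others. For GSTM4 this order holds only for the sum over transcripts: counting coding transcripts alone, a choice made after seeing the data, its control was the lowest, at 0.135 FPKM against 1.00 and 0.424. Their bounds were as wide as those of 34.5, 18.2 and 7.43 fragments for GSTM2 and 28.6, 16.8 and 6.43 for GSTM4.

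In log2(FPKM + 1) the difference of GSTM2 was -0.89 ± 0.30 (SE), with an unadjusted p of 0.0412 and an adjusted p of 0.797 by limma. That of GSTM4 was -0.72 ± 0.27 (SE), also with an adjusted p of 0.797. GSTM3 (109733932 to 109741038), a mu enzyme best known from testis and brain, was at 0.964 (0.706 to 1.22), 0.707 (0.447 to 0.967) and 0.624 (0.422 to 0.825) FPKM, with all bounds overlapping. With no filter on level its difference was -0.24 ± 0.11 (SE) and the limma adjusted p was 0.801. The neighbour GSTM1, named here after its values were seen, was at 4.22 (3.14 to 5.31), 3.07 (2.15 to 3.98) and 1.52 (0.885 to 2.16) FPKM and GSTM5 at 0, 0 and 0.0446. The values of GSTM1 follow the same order as those of GSTM2 and GSTM4, with bounds apart from the control only in shBCAT1-labelled library 2. Summed over GSTM1 to GSTM4, so that reads split among these 4 genes are counted together, the cluster was at 9.32 FPKM in the control, 5.98 in shBCAT1-labelled library 1 and 3.06 in shBCAT1-labelled library 2, or 0.642 and 0.328 times the control.

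**Figure D2:**
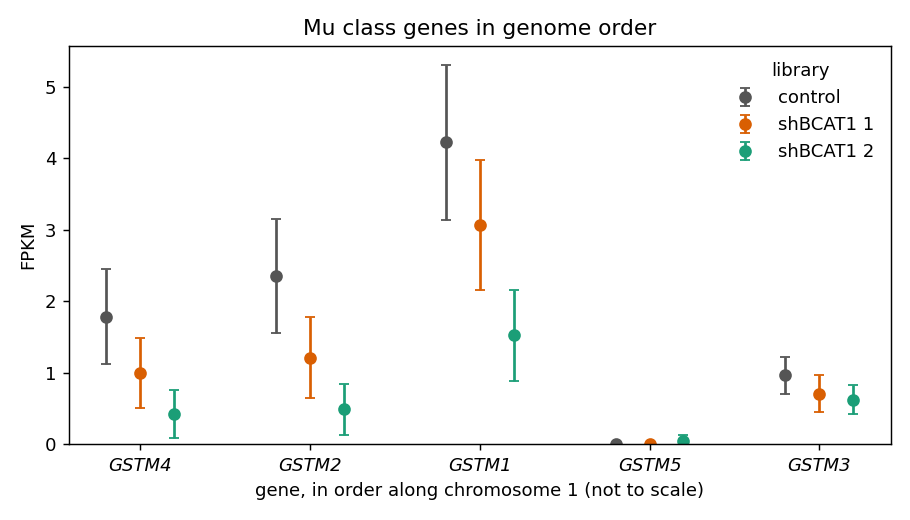
FPKM (linear axis) of the mu class genes in their order along chromosome 1, one point per library with the confidence bounds as bars. GSTM4, GSTM2 and GSTM1 are highest in the control and lowest in shBCAT1-labelled library 2, and GSTM5 is at or near 0.

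GSTK1, the kappa enzyme, whose fold resembles bacterial disulfide isomerases (chromosome 7, 143263429 to 143269129), had 7.19 FPKM in the control (bounds 5.25 to 9.13), 5.32 (1.97 to 8.67) in shBCAT1-labelled library 1 and 3.10 (0.903 to 5.30) in shBCAT1-labelled library 2. The bounds of the latter overlap those of the control by a narrow margin. They are wide for the level, as for 54.7, 10.1 and 7.96 fragments. The difference in log2(FPKM + 1) was -0.69 ± 0.33 (SE) and the limma adjusted p was 0.797.

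GSTO1, which reduces dehydroascorbate and arsenic compounds more than it conjugates (chromosome 10, 104254194 to 104267464), had 4.89 FPKM in the control (3.59 to 6.20), 4.35 (3.14 to 5.55) in shBCAT1-labelled library 1 and 5.03 (3.75 to 6.30) in shBCAT1-labelled library 2. The control lies between the others, and all bounds overlap. Its difference was -0.05 ± 0.20 (SE) in log2(FPKM + 1), with a limma adjusted p of 0.955, and its sign turned with median-of-ratios scaling (0.018), quantile normalization (0.067) and removal of the length trend (0.15). GSTA4, which conjugates the lipid aldehyde 4-hydroxynonenal (chromosome 6, 52977948 to 52995380), had 0.0584 FPKM in the control, the value of 1 fragment by its bounds, and is listed at 0 in the shBCAT1-labelled libraries. This level allows no statement on a difference. The 0.0100 that limma with no filter gave as its unadjusted p rests on these equal zeros (adjusted p 0.736).

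Over the family, limma called 0 of the 7 members with a mean of at least 1 FPKM, beside 0.36% of the 3889 genes tested called lower and 0% called higher. At an unadjusted p under 0.05 the members were 2, GSTM2 and MGST2, both lower, beside 4.96% of genes. These 2 and GSTM4 reached a mean of 1 FPKM only with the control counted. Their means over the shBCAT1-labelled libraries were 0.849 (GSTM2), 0.534 (MGST2) and 0.713 (GSTM4) FPKM. The filter thus favoured a lower reading for them, and their direction is no support for a difference. Bounds apart from the control and lower were found for 1 of the 7 members tested in shBCAT1-labelled library 1 (7.61% of genes tested). In shBCAT1-labelled library 2 they were found for 4 of the 7 (7.66%), namely GSTP1, GSTM2, GSTM4 and MGST2. Among genes tested with transcripts of 800 to 1500 bases these shares were 12.1% and 11.4%. For 0 of the 7 were the bounds apart and higher (1.65% and 7.35% of genes tested), and no member below the minimum had bounds apart from the control. After median-of-ratios scaling of values and bounds the counts were again 1 and 4, beside 3.73% and 7.46% of genes.

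Relative to the control 10 of 10 members were lower in shBCAT1-labelled library 1 and 9 of 10 in shBCAT1-labelled library 2, beside 56.8% and 43.6% of the 16451 genes with a value in any library, and 68.7% and 49% of genes tested. These comparisons share the control library, so a high value there lowers both. GSTA4 counts as lower, here and below, only because its 1 fragment lay in the control, so it says nothing on direction. For 9 of 10 members the control lay above both other libraries, beside 35.3% of genes with a value, 43.7% of genes tested and 62.3% of the 875 genes tested with transcripts of 800 to 1500 bases, a range that holds every member but GSTM3 (1565 bases). The median difference of all 10 members with no filter was -0.39 in log2(FPKM + 1), beside 0.00 for all genes with a value. Only 3889 of those 16451 genes were tested, and adding 1 to FPKM holds the differences of lower genes near 0. The 7 members tested had a median of -0.69, beside -0.06 for genes tested and -0.21 for those with transcripts of 800 to 1500 bases. Of the 7, GSTM2, GSTM4 and MGST2 reached the minimum only with the control counted and had the most negative differences, which favours a lower median. GSTP1, GSTK1, MGST1 and GSTO1 had differences of -0.40, -0.69, -0.37 and -0.05. In shBCAT1-labelled library 1 the median of all 10 members was -0.34 and in shBCAT1-labelled library 2 -0.38. The library labelled shBCAT1 2 was below shBCAT1-labelled library 1 for 5 of the 7 members tested (31.7% of genes tested). For 0 of the 7 did the bounds of these libraries lie apart (9.54% of genes tested).

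**Figure D3:**
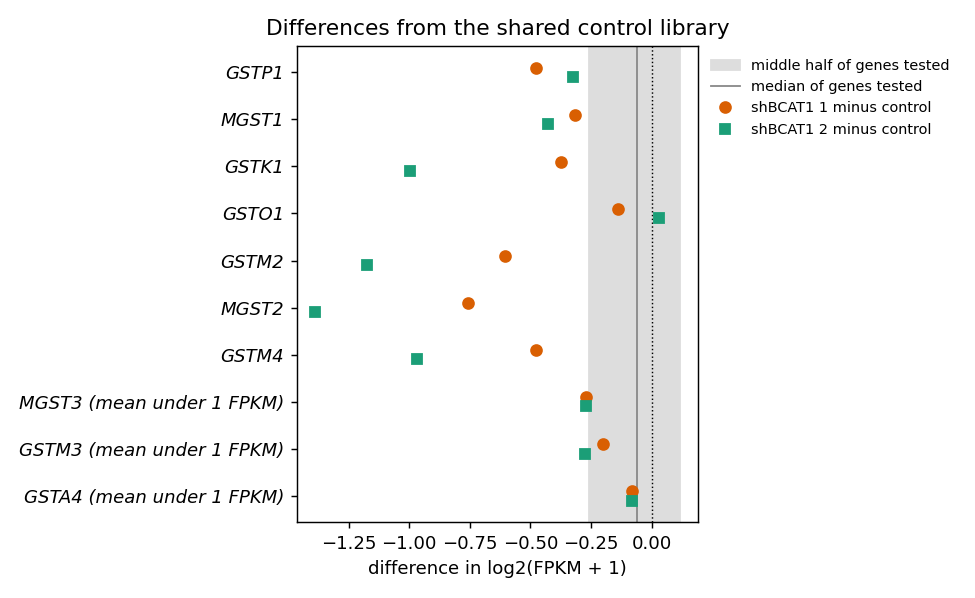
Difference in log2(FPKM + 1) of each library labelled shBCAT1 from the shared control, per gene; the grey band holds the middle 50% of the fitted differences of genes tested (-0.26 to 0.12) and the grey line their median (-0.06). In shBCAT1-labelled library 2 MGST2, GSTM2, GSTK1 and GSTM4 lie furthest left, each further than in shBCAT1-labelled library 1, and GSTO1 lies near 0. In shBCAT1-labelled library 1 GSTP1 (-0.48) lies left of GSTK1 (-0.37).

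The makeup of the family was dominated by GSTP1 in every library. FPKM is scaled to length, so levels can be set side by side. GSTP1 held 72.4% of the members' summed FPKM in the control, 71.9% in shBCAT1-labelled library 1 and 77.5% in shBCAT1-labelled library 2. The sum was 129 FPKM in the control and 93.0 and 96.0 in the others. The FPKM total over all genes was also highest in the control, at 53898 against 44312 and 46145. How much of the family's lower sum goes with these totals was not tested. MGST1 came second in each library, with 11.6%, 12.8% and 11.3%. GSTK1 and GSTO1 followed in the control and in shBCAT1-labelled library 1, and changed places in shBCAT1-labelled library 2; their bounds overlap in each library. In the control, MGST2 stood between GSTM2 and GSTM4 with overlapping bounds, above MGST3 and GSTM3. It took the ninth place in shBCAT1-labelled library 2, with 0.213% of the sum. Without GSTP1 the other members summed to 35.6 FPKM in the control, 26.1 in shBCAT1-labelled library 1 and 21.6 in shBCAT1-labelled library 2. Among the 3889 genes tested GSTP1 ranked 92nd by FPKM in the control, 101st in shBCAT1-labelled library 1 and 89th in shBCAT1-labelled library 2.

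How a gene's value was split among its transcripts differed between libraries for 5 members, with the limit that the split of fragments among overlapping transcripts is itself an estimate. For MGST1 the transcript from the upstream start (NM_145792) was at 5.10 FPKM in the control (bounds 3.32 to 6.88), 0.000694 (upper bound 0.185) in shBCAT1-labelled library 1 and 2.05 (0.931 to 3.17) in shBCAT1-labelled library 2. Its deposited locus begins at 16347142, within the upstream window printed above. The transcript from the main start (NM_020300) was at 9.90 (7.71 to 12.1), 11.7 (9.64 to 13.7) and 6.58 (4.86 to 8.31) FPKM. The lower sum of MGST1 in shBCAT1-labelled library 1 thus lies on NM_145792, while NM_020300 was at 11.7 FPKM there, above its control value with overlapping bounds. In shBCAT1-labelled library 2 a non-coding transcript (NR_048545) added 1.14 FPKM.

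GSTM4 was read from different transcripts in the control and elsewhere. The non-coding NR_024538 held 1.65 FPKM in the control (1.02 to 2.28) and had upper bounds of 0.113 and 0.107 in the shBCAT1-labelled libraries 1 and 2. The coding NM_000850 had an upper bound of 0.109 in the control and was at 1.00 (0.539 to 1.46) and 0.424 (0.125 to 0.723) in the others. The direction of GSTM4 thus turns when coding transcripts alone are counted. GSTM3 had 36.6% of its value on the non-coding NR_024537 in shBCAT1-labelled library 1 and nearly none in the others, which leaves coding levels of 0.964, 0.448 and 0.624 FPKM.

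For GSTK1 the transcript NM_001143681 was at 2.17 FPKM in the control (1.01 to 3.33), 0.612 (0 to 2.95) in shBCAT1-labelled library 1 and 0.000513 (upper bound 0.169) in shBCAT1-labelled library 2. NM_015917, which held 60.5% of the gene in the control, was at 4.35 (2.89 to 5.80), 4.43 (2.05 to 6.80) and 2.56 (0.953 to 4.16) FPKM, with all bounds overlapping. With only the most abundant transcript of each gene kept, the fitted difference was -0.28 for GSTK1 and -0.15 for MGST1, and the control lay above both other libraries for 2 of 5 members tested. MGST2 had 13.5% of its value on NM_001204367 in the control, at 0.290 FPKM (0 to 0.624), and nearly none in the others, with upper bounds of 0.132 and 0.125. GSTP1, MGST3 and GSTA4 have 1 entry each, and GSTM2 and GSTO1 were read almost wholly from 1 transcript.

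**Figure D4:**
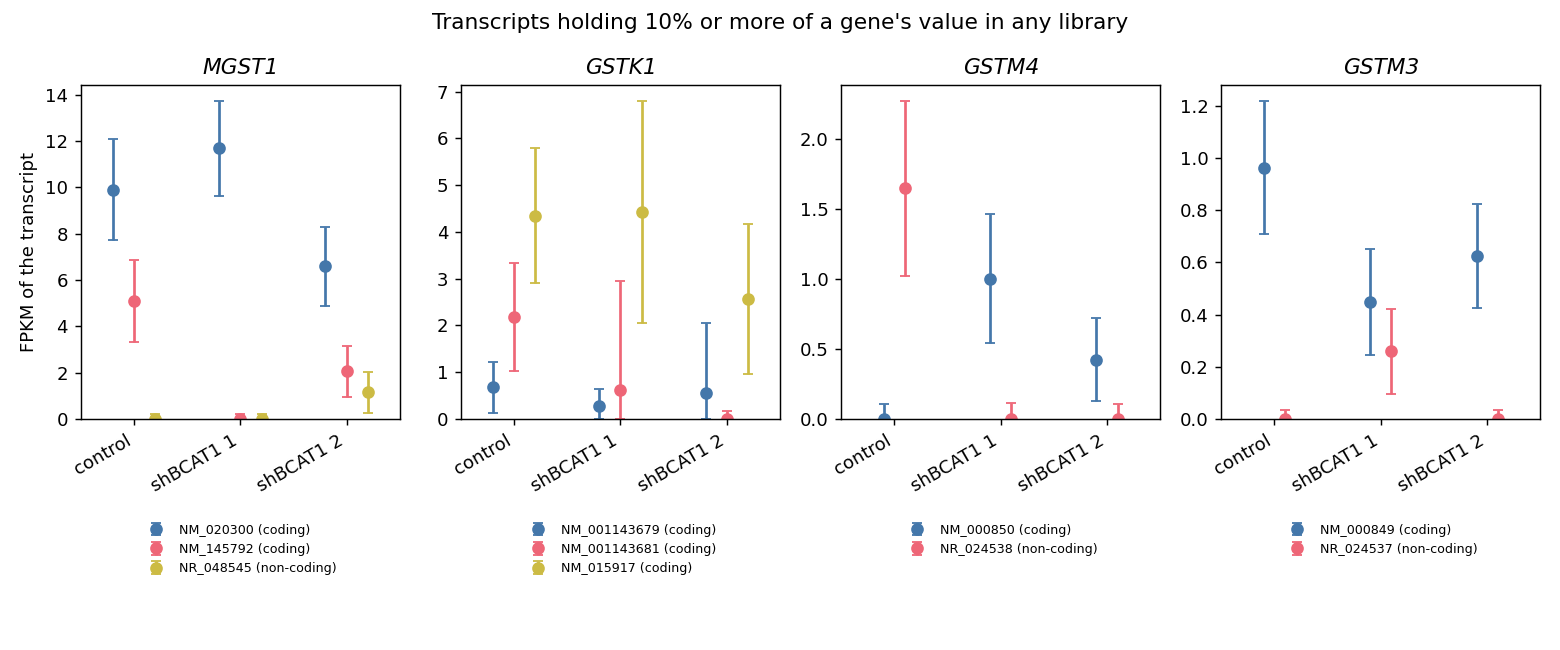
FPKM (linear axes) of each RefSeq transcript that holds at least 10% of MGST1, GSTK1, GSTM4 or GSTM3 in any library; bars are the confidence bounds of the transcript. NM_145792 of MGST1 and NR_024538 of GSTM4 are near 0 in shBCAT1-labelled library 1, beside 5.10 and 1.65 FPKM in the control.

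Other genes of the family and of glutathione use were taken from lists chosen by function. Of 20 further transferases, prostaglandin and leukotriene synthases of the same families and chloride channel proteins with a transferase fold, 5 had a mean of at least 1 FPKM, limma called 0 of them (0 at an unadjusted p under 0.05) and their median difference was -0.22. CLIC1, a chloride channel protein of that fold, was at 26.5 FPKM in the control and 21.4 ± 3.46 over the shBCAT1-labelled libraries (SD, n = 2). PTGES, the MAPEG enzyme that makes prostaglandin E2, was at 14.0 against 13.0 ± 0.85 FPKM, PTGES2 at 8.64 against 8.30 ± 0.35 and GSTZ1, the zeta transferase of tyrosine breakdown, at 3.60 against 2.96 ± 0.48. CLIC1 had bounds apart from the control and lower in shBCAT1-labelled library 2, while GSTZ1, PTGES and PTGES2 overlapped the control by their bounds in both libraries. GSTA1, GSTA2, GSTA3, GSTA5, GSTT1, GSTT4, HPGDS and ALOX5AP, 8 in all, were listed at 0 in every library.

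Glutathione supply and recycling had 5 of 10 genes tested, with 0 called by limma (0 at an unadjusted p under 0.05) and a median difference of -0.15. SLC3A2, the shared chain of the cystine importer, was at 12.9 FPKM in the control and 12.3 ± 0.46 over the shBCAT1-labelled libraries (SD, n = 2), and GSR, which reduces oxidised glutathione, at 4.66 against 3.51 ± 0.69. GGCT, which breaks down gamma-glutamyl dipeptides, was at 3.38 against 3.42 ± 0.24 FPKM, and GSS, the last enzyme of glutathione synthesis, at 2.66 against 2.31 ± 0.01. Only GSR had bounds apart from the control, in shBCAT1-labelled library 2.

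For the handling of conjugates 2 of 13 genes were tested and 0 called (0 at an unadjusted p under 0.05 by limma), with a median of -0.01. The conjugate exporter ABCC3 was at 2.35 FPKM in the control and 2.38 ± 0.007 over the shBCAT1-labelled libraries (SD, n = 2). ABCC1, at 0.920 against 0.913 ± 0.27 FPKM, and ABCC5, at 0.921 against 0.902 ± 0.05, were below the minimum. These exporters overlapped the control by their bounds in both libraries.

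Sensors of electrophiles had 5 of 8 genes tested and 0 called by limma (0 at an unadjusted p under 0.05), with a median of -0.05. KEAP1, which holds NRF2 in check, was at 3.20 FPKM in the control and 2.89 ± 0.39 over the shBCAT1-labelled libraries (SD, n = 2), and RBX1, a subunit of the ligase that marks NRF2 for breakdown, at 3.40 against 2.49 ± 0.41. The NRF2 partners MAFK and MAFG were at 2.26 against 2.14 ± 0.04 and 1.87 against 1.99 ± 0.13 FPKM. All 4 had bounds that overlap the control in both libraries. Of 4 partners of GSTP1, 2 were tested and 0 called (0 at an unadjusted p under 0.05 by limma), with a median of -0.06. PRDX6, a peroxidase that GSTP1 reactivates, was at 7.66 FPKM in the control, 5.50 in shBCAT1-labelled library 1 and 7.53 in shBCAT1-labelled library 2, and TRAF2 at 1.51, 1.65 and 1.74 in that order. The JNK genes MAPK8 and MAPK9 were below 1 FPKM, at 0.162 against 0.127 ± 0.04 and 0.330 against 0.304 ± 0.05. PRDX6 had bounds apart from the control and lower in shBCAT1-labelled library 1 only, while TRAF2, MAPK8 and MAPK9 overlapped the control in both libraries.

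By distance between the pairs of log2(FPKM + 1) differences, over 3 libraries and 468 protein-coding genes averaging 10 FPKM or more, the genes most like GSTP1 were the small heat shock protein gene HSPB1, the mitochondrial ribosomal protein gene MRPS34 and the ubiquitin-like gene UBL5. HSPB1 was at 125 FPKM in the control, 88.6 in shBCAT1-labelled library 1 and 99.8 in shBCAT1-labelled library 2. The distances were 0.01, 0.02 and 0.02, which over so few libraries describes the values and nothing more.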

How the data were processed

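RNA-seq of 3 libraries was analysed. Trim Galore, TopHat, Cufflinks and build hg38 are named per the submitters' processing notes; their versions and settings, the annotation and strand use are not stated there. The deposited values are FPKM with confidence bounds and a status, which the authors computed per library, 1 per RefSeq transcript and locus (56882 entries). Accessions were named with RefSeq (GRCh38.p14) and GENCODE release 29 tables (431 of 50337 stayed unnamed and were kept as they are), and FPKM was summed per gene. All 30 entries of the members had status OK.

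Bounds of a gene are 2 SDs from its value, the SD being a root sum of squares over entries taken from the upper bounds. The square of value over SD is given as fragments; for genes with 1 entry it was whole within 0.05 in 78.9% to 79.6% of cases. Read totals are unknown. Limma 3.58.1 (R 4.3.3) with an intensity trend was fitted to log2(FPKM + 1), which understates changes of low genes, for all genes averaging 1 FPKM or more and with status OK, two-sided, with Benjamini-Hochberg adjustment at 0.05. With 1 control library only the shBCAT1-labelled libraries inform the spread (residual degrees of freedom 1, prior 2.99) and the same spread is assumed for the control. The fit was run on simulated data, and the check was of the mean size of planted differences, not of error rates. Noise for the simulated control was drawn from the shBCAT1-labelled libraries. Members below the minimum come from a fit with no filter. The length trend was removed by loess (span 0.5) on GENCODE transcript lengths. Promoter windows come from RefSeq. Tables and plots were made with matplotlib 3.10.9, numpy 2.4.6 and pandas 2.3.3 in Python 3.11.15.

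Members and lists were chosen with earlier results of these data known. Named genes are all members, the 4 of each list with the highest mean (1 of them is not reported here), and the 3 genes nearest to GSTP1; GSTM1, GSTM5, the length and level classes, the coding-only sums and the scaled bounds were added after seeing the values.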

Additional observations from a re-analysis of the deposited data

How the results depend on the processing

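Adjusted p by limma stayed above 0.05 for every member in every setting run, from 0.420 to 0.987 for GSTP1 over 12 alternatives and from 0.534 to 0.987 for GSTM2 and MGST2. The sign of GSTO1 turned with median-of-ratios scaling (0.018), quantile normalization (0.067) and the length trend removed (0.15); the cause was not tested. No other member tested changed sign, but GSTM4 was below the minimum with coding transcripts only. The median of the members tested, -0.69 over 7, was -0.33 with a pseudocount of 5, which compresses low values, and -0.28 with transcripts kept apart, where 5 were tested and the control lay above both other libraries for 2. Of the 7, GSTM2, GSTM4 and MGST2 reached the minimum of 1 FPKM only with the control counted, which favours a lower median. At a minimum of 5 FPKM 3 were tested, all 3 below the control in both libraries. Without replicate 1 or 2 labelled shBCAT1 the median was -0.97 and -0.48, with 6 and 7 of 7 members below the control. Over all genes limma called 14 lower and 0 higher. It called 0 lower with no filter (789 at an unadjusted p under 0.05), 8 at a minimum of 5 FPKM, 8 with transcripts kept apart, 1 without loci under 300 bases and 0 with coding transcripts only (249 at an unadjusted p under 0.05), and 1, 2 and 1 higher with a pseudocount of 0.1, the length trend removed and coding transcripts only. The minimum of 5 FPKM moved the median of all genes from -0.06 to -0.22. At unadjusted p under 0.05 the genes lower and higher were 193 and 25, 103 and 74 with median-of-ratios scaling and 77 and 63 with quantile normalization. No paired analysis was possible because there is only 1 control library. Depth limits MGST2, GSTM2 and GSTM4, each under 10 fragments by its bounds in shBCAT1-labelled library 2, and GSTA4. The bounds of MGST2 (4 entries), GSTM4 (3) and GSTM2 (2) also add errors over entries, so their fragment values do not measure depth alone. GSTK1 also read as 7.96 fragments there, but its bounds add the errors of 4 overlapping entries and do not measure depth alone. GSTO1, of similar length and at 5.03 FPKM, read as 61.7 fragments in that library.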
